A study of Homo sapiens with 16 samples.

Results

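The genes described here are 10 genes of fatty acid synthesis and desaturation, namely *SREBF1*, which encodes the transcription factor SREBP1, and 9 enzyme genes, *ACLY*, *ACSS2*, *ACACA*, *FASN*, *ELOVL6*, *ELOVL5*, *SCD*, *FADS1* and *FADS2*. They were chosen for their function, with earlier results of these data known, and their rows were found through their Entrez identifiers. Of the 10 genes, 9 were listed among the 13559 genes of the first experiment, where *ACACA* was not listed, and all 10 were listed among the 14024 genes of the second. RNA was sequenced from LN229, an established human glioblastoma cell line, in 16 libraries that form 8 groups of 2. In the first experiment, untreated cells were kept in regular culture (DMEM with fetal bovine serum) or in ischemic culture, which combined hypoxia with medium low in glucose, glutamine and serum. In the second experiment, both cultures were given the vehicle DMSO, the p38α inhibitor VX745 or MK25, an inhibitor of MK2, a kinase that p38α activates. The study's methods give different concentrations for VX745 and MK25, so no comparison between them is matched for dose. The labels do not say whether the 2 libraries of a group came from separate cultures, so p-values measure only the spread between these libraries, which may be technical.

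Fatty acids are built in the cytosol from acetyl-CoA, which ACLY makes from citrate and ACSS2 makes from acetate. ACACA carboxylates acetyl-CoA to malonyl-CoA, FASN assembles palmitate from these units, and ELOVL6 and ELOVL5 lengthen the products. SCD introduces a double bond into saturated chains, and FADS1 and FADS2 desaturate polyunsaturated chains. SREBP1 is made as a precursor in the endoplasmic reticulum membrane, is escorted by SCAP to the Golgi for cleavage, is retained by INSIG proteins when sterols are abundant, and activates many genes of the pathway as a soluble nuclear fragment. Its relative SREBP2, encoded by *SREBF2*, acts mainly on genes of sterol synthesis. Gliomas are known to use this pathway for membrane lipids.

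Values are log2 normalized CPM (reads of a gene scaled to library size) as deposited, on which a difference of 1 is a fold change of 2. The reads recovered from them numbered between 20122017 and 37562668 per library on the listed genes. A library held between 16 and 44 reads of *ACACA*, and between 632 and 41614 reads of each other gene of the group. All 7 glioma markers checked were listed, but *GFAP* lay between −0.36 and 1.06 in the second experiment, where a gene with 3 reads takes a value between −2.71 and −2.23. Of 8 markers of leukocytes, endothelium, epithelium and neurons, 7 were not listed, and *SYT1*, a synaptic vesicle gene, lay between 3.69 and 4.08 in the regular and between 5.38 and 6.31 in the ischemic libraries of both experiments. The hypoxia gene *VEGFA* lay between 4.89 and 6.39 in regular and between 8.82 and 9.80 in ischemic culture. RNA was measured in bulk, so fewer cells with a transcript and less RNA per cell cannot be told apart.

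The promoters of *SREBF1* and *SCD* are shown because these genes gave the largest rises under ischemia in the group, as described below. Both stretches are the 250 bases before the RefSeq start of the gene on GRCh38.p14, written 5′ to 3′ on the gene's strand, with CCAAT boxes (CCAAT or ATTGG) and GC boxes (GGGCGG or CCGCCC) in capitals. The *SREBF1* stretch lies at chr17:17836987-17837236 on the minus strand, next to a gene that spans chromosome 17 from 17811334 to 17836986, and 16 of its bases are annotated as *SREBF1* exon by GENCODE. The *SCD* stretch lies at chr10:100346983-100347232 on the plus strand, next to a gene that spans chromosome 10 from 100347233 to 100364826, and no exon or gene is annotated in it.
SREBF1: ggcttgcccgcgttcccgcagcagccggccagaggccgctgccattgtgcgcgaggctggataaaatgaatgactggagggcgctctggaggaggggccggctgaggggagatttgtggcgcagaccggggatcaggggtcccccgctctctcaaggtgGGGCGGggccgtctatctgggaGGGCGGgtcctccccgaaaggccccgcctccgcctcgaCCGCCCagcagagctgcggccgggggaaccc
SCD: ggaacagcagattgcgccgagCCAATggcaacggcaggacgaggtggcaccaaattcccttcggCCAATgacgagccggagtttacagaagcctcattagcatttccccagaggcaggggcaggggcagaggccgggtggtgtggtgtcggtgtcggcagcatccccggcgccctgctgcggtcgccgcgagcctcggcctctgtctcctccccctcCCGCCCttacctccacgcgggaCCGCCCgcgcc
In *SREBF1* the capitals mark 3 GC boxes, and in *SCD* they mark 2 CCAAT boxes and 2 GC boxes. Promoter windows of 300 bases, from 250 before to 50 after the start, were at hand for 9 of the 10 genes. A CCAAT box was found in windows of 6 of these 9 genes and in those of 39.7% of all 27305 genes with a window. A GC box was found for 8 of the 9 genes and for 48.3% of all genes. The E-box CACGTG was found for 1 of the 9 genes, *ELOVL5*, and for 8.77% of all genes, and the letters ACGTG, which the E-box contains, for 4 of the 9 genes and for 24.9% of all genes. The letters TCACNCCAC, a form of the sterol regulatory element, were found for none of the 9 genes and for 1.39% of all genes. These searches covered both strands, and they describe letters in the windows only.

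**Figure D1:**
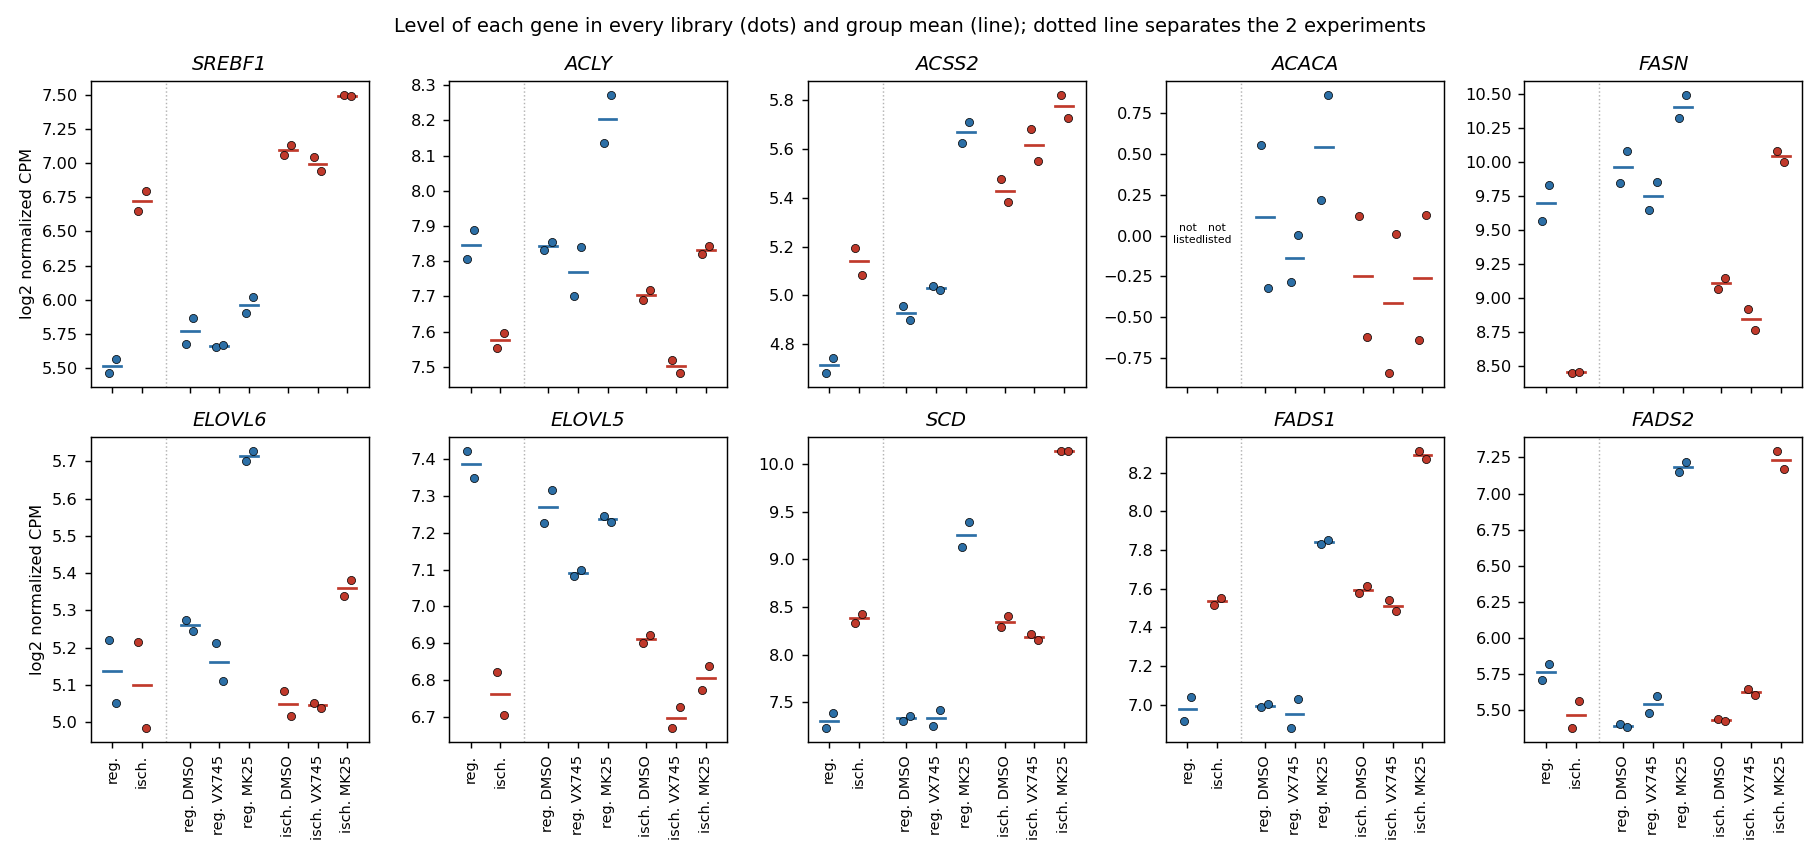
The level of each gene in log2 normalized CPM (vertical axes, each with its own range) is plotted for every library as a dot and for every group as a line at the mean, with regular culture in blue and ischemic culture in red. *SREBF1* and *SCD* separate the cultures within each treatment, and *SCD* and *FADS2* stand highest in the MK25 groups.

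The first comparison asked how ischemic culture differed from regular culture. In untreated cells, *SREBF1* rose 2.31-fold and *SCD* rose 2.10-fold, while *FASN* fell 2.37-fold. Of the 9 genes listed, 4 were higher (*SREBF1*, *SCD*, *FADS1* and *ACSS2*), 4 were lower (*FASN*, *ELOVL5*, *FADS2* and *ACLY*) and *ELOVL6* did not pass the test, by limma with Benjamini-Hochberg adjustment over all 13559 genes. Over all genes, 35.2% were called higher and 35.2% lower, so the share of the group that was called in each direction was near the background. The median difference of the 9 genes was −0.04, beside −0.01 for all genes. With DMSO, 4 genes were higher and 4 lower of the 10 listed, where 34.4% and 35.2% of all genes were called. The 2 experiments share no library, and *SREBF1*, *SCD*, *FADS1* and *ACSS2* were called higher and *FASN*, *ELOVL5* and *ACLY* lower in both.

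*SREBF1*, the regulator of the pathway, measured 6.65 and 6.80 in the ischemic untreated libraries and 5.47 and 5.56 in the regular ones. With DMSO it measured 7.06 and 7.13 in ischemic culture and 5.67 and 5.87 in regular culture. Both ischemic libraries lay above both regular libraries each time, and the cultures did not overlap for 85.2% of all genes in untreated cells and 83.3% with DMSO. The difference was 1.21 (SE 0.08, limma adjusted p = 4.64e-08) in untreated cells and 1.32 (SE 0.07, limma adjusted p = 1.34e-11) with DMSO. Exons of *SREBF1* overlap those of *RAI1* on the opposite strand over 556 bases, 6.75% of its exonic bases, and no step that keeps strand is stated for the library kit, so reads there cannot be told apart.

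Among the enzymes that supply acetyl-CoA, the 2 genes differed in direction. *ACLY* measured 7.55 and 7.60 in ischemic against 7.80 and 7.89 in regular untreated libraries, a fall of 0.27 on the log2 scale (SE 0.07, limma adjusted p = 0.0028). With DMSO the fall was 0.14 on the log2 scale (SE 0.06, limma adjusted p = 0.041), and this call was lost when any 1 of the 4 DMSO libraries was left out. *ACSS2* measured 5.19 and 5.09 against 4.68 and 4.74, a rise of 0.43 (SE 0.09, limma adjusted p = 8.35e-04). Its rise with DMSO was 0.50 (SE 0.07, limma adjusted p = 5.17e-06). In both experiments the ischemic and regular libraries did not overlap for either gene, as for 85.2% and 83.3% of all genes.

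*ACACA*, the gene of the malonyl-CoA step, lay between −0.84 and 0.86 in the 12 libraries of the second experiment. Its difference with DMSO was −0.37 with a 95% interval from −1.25 to 0.51, and the libraries overlapped (limma adjusted p = 0.44). A change of *ACACA* was not detectable at 16 to 44 reads per library. Of the 9983 31-base words in its longest GENCODE transcript, 84.4% also occur on alternate scaffolds of the reference genome at hand, against at most 3.28% for the other 9 genes. Whether such scaffolds were in the index used for alignment is not given in the sources used here, and their part in the low count was not tested.

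*FASN*, the fatty acid synthase gene, had the largest fall of the group. It measured 8.45 and 8.46 in the ischemic untreated libraries against 9.57 and 9.83 in the regular ones. With DMSO it measured 9.07 and 9.15 against 9.85 and 10.08. In untreated cells and with DMSO, no ischemic library reached a regular library, and the cultures did not overlap for 85.2% and 83.3% of all genes. The fall was 1.24 on the log2 scale (SE 0.08, limma adjusted p = 6.32e-08) in untreated cells and 0.86 on the log2 scale (SE 0.09, limma adjusted p = 9.21e-08) with DMSO.

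The elongase genes were level or lower under ischemia. *ELOVL5* measured 6.82 and 6.71 against 7.42 and 7.35 in untreated cells, a fall of 0.62 on the log2 scale (SE 0.07, limma adjusted p = 6.35e-06). With DMSO its fall was 0.36 on the log2 scale (SE 0.05, limma adjusted p = 1.30e-05). *ELOVL6* measured 5.22 and 4.98 in ischemic and 5.22 and 5.05 in regular untreated libraries, which overlapped. Its difference there was −0.04 (SE 0.10, limma adjusted p = 0.75). With DMSO *ELOVL6* was lower by −0.21 (SE 0.06, limma adjusted p = 0.0081), a call that was lost without ischemic DMSO replicate 2 (limma adjusted p = 0.072). Whether the effect on *ELOVL6* differed between the experiments was not tested.

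Among the desaturase genes, *SCD* and *FADS1* rose and *FADS2* did not. *SCD* measured 8.34 and 8.42 in the ischemic untreated libraries against 7.23 and 7.39 in the regular ones, a difference of 1.07 (SE 0.07, limma adjusted p = 7.56e-08). With DMSO it measured 8.29 and 8.41 against 7.31 and 7.36, a difference of 1.01 (SE 0.08, limma adjusted p = 2.24e-09). *FADS1*, the delta-5 desaturase gene, measured 7.52 and 7.55 against 6.91 and 7.04, a difference of 0.56 (SE 0.07, limma adjusted p = 1.48e-05). Its difference with DMSO was 0.60 (SE 0.06, limma adjusted p = 4.09e-08). For both genes the cultures did not overlap in either experiment, as for 85.2% and 83.3% of all genes.

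*FADS2*, the delta-6 desaturase gene, measured 5.37 and 5.56 against 5.71 and 5.82 in untreated cells, a fall of 0.30 on the log2 scale (SE 0.09, limma adjusted p = 0.0090). That call was lost without ischemic untreated replicate 1 (limma adjusted p = 0.056) and without regular untreated replicate 2 (limma adjusted p = 0.10). With DMSO it measured 5.44 and 5.42 against 5.40 and 5.39, a difference of 0.04 with a 95% interval from −0.09 to 0.17 (limma adjusted p = 0.59). Exons of *FADS1* and *FADS2* share 490 bases on opposite strands, 4.79% and 4.64% of their exonic bases, where reads of the 2 genes cannot be told apart.

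**Figure D2:**
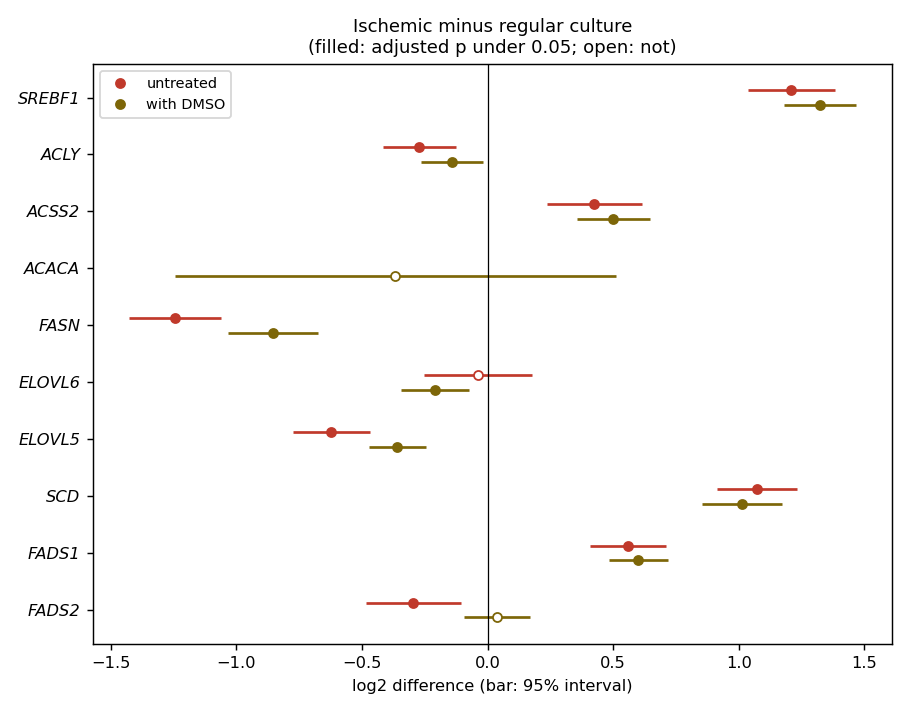
The log2 difference between ischemic and regular culture (horizontal axis) is plotted for each gene with its 95% interval, in untreated cells (red) and with DMSO (olive), filled where the adjusted p was under 0.05. *SREBF1*, *SCD*, *FADS1* and *ACSS2* lie above 0 and *FASN*, *ELOVL5* and *ACLY* below 0 in both experiments, and *ACACA* was listed in the second only.

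Levels were compared between genes only as log2 CPM per kb of the longest protein-coding transcript in GENCODE, and within 1 table. In regular untreated culture *FASN* stood highest at 6.62, followed by *ELOVL5* at 5.76 and *ACLY* at 5.74, whose libraries overlapped. *SCD* at 4.92 and *FADS1* at 4.85 overlapped too, and then came *FADS2* at 4.14, *SREBF1* at 3.22 and *ACSS2* at 3.17, the last pair overlapping, and *ELOVL6* at 2.42. In ischemic untreated culture *SCD* stood highest at 5.99, followed by *ACLY* at 5.46, *FADS1* at 5.41, *FASN* at 5.37 and *ELOVL5* at 5.14. *SREBF1* at 4.43, *FADS2* at 3.84, *ACSS2* at 3.59 and *ELOVL6* at 2.38 followed, and no neighbours overlapped in this group.

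In the second experiment, *FASN* stood highest in all 3 regular groups, at 6.88 with DMSO, 6.67 with VX745 and 7.33 with MK25. In ischemic culture *SCD* and *FASN* stood highest and overlapped with DMSO (5.95 and 6.03) and with VX745 (5.79 and 5.76), while with MK25 *SCD* at 7.75 stood above *FASN* at 6.96. *ELOVL6* at 2.33 to 3.0 and *ACACA* at −3.74 to −2.78 were lowest in all 6 groups. The order depends on the length used, since *FASN* was highest in 5 of 8 groups by the longest transcript and in all 8 by the median one, which counts short fragments.

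Within a library, the difference between *SCD* and *FASN* per kb does not depend on the scaling between libraries. It was −1.65 and −1.75 in the regular and 0.57 and 0.66 in the ischemic untreated libraries. With DMSO it was −1.85 and −2.03 in regular and −0.09 and −0.05 in ischemic culture. With VX745 it was −1.70 and −1.74 in regular and −0.01 and 0.08 in ischemic culture. With MK25 it was −0.50 and −0.41 in regular and 0.75 and 0.82 in ischemic culture. Within each treatment, the ischemic libraries lay above the regular ones by more than the spread between replicates.

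**Figure D3:**
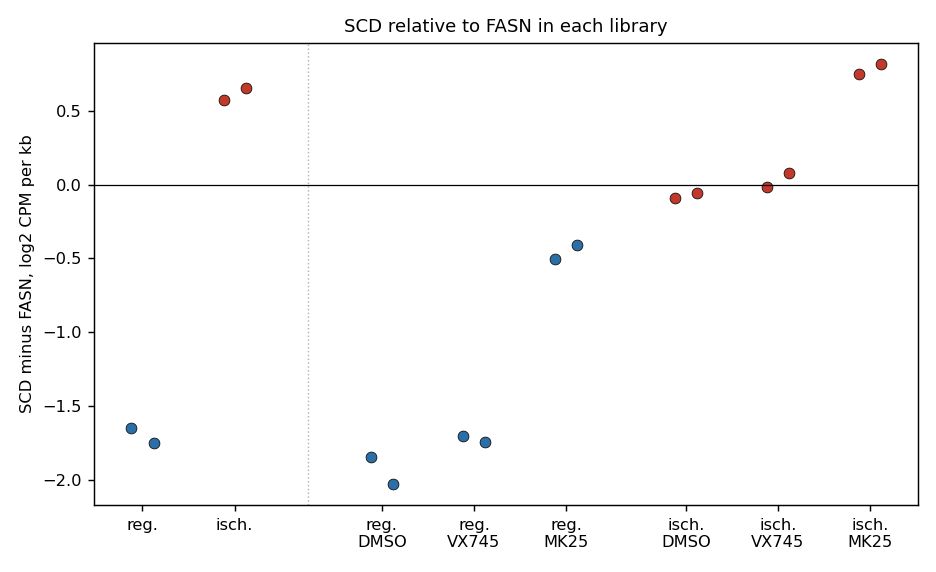
The level of *SCD* minus that of *FASN* in log2 CPM per kb (vertical axis) is plotted for each library, with regular culture in blue, ischemic culture in red and a dotted line between the experiments. The regular libraries lie between −2.03 and −0.41 and the ischemic libraries between −0.09 and 0.82.

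The next comparisons asked how VX745 changed expression. In regular culture, limma called none of the 10 genes at an adjusted p under 0.05. At an unadjusted p under 0.05, *FADS2* was higher and *FASN* and *ELOVL5* were lower, and voom on the recovered reads called none. Over all genes 0.178% were called higher and 0.157% lower, and 2075 of 14024 passed an unadjusted p under 0.05. The 95% interval of the *SREBF1* difference ran from −0.25 to 0.03 and that of *SCD* from −0.16 to 0.16.

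In ischemic culture, VX745 went with small differences. *FASN* fell by 0.26 on the log2 scale (SE 0.09, limma adjusted p = 0.028), *ELOVL5* fell by 0.21 on the log2 scale (SE 0.05, limma adjusted p = 0.0070) and *ACLY* fell by 0.20 on the log2 scale (SE 0.06, limma adjusted p = 0.015). *FADS2* rose by 0.19 (SE 0.06, limma adjusted p = 0.027). These were 1 gene higher and 3 lower of 10, where 14% of all genes were called higher and 14.9% lower. The median of the group was −0.13, beside 0.00 for all genes. All 3 falls were lost with quantile normalization, where the *FASN* difference was −0.07, and leaving out any 1 of the 4 libraries compared left 0 genes higher and at most 1 lower. The interaction of VX745 with culture called none of the 10 genes by limma, and none at an unadjusted p under 0.05 or by voom, where 5.78% of all genes were called higher and 6% lower. *INSIG1*, which retains SREBP precursors, fell by 0.89 on the log2 scale with VX745 in ischemic culture, and *SREBF2* measured −0.09 there without passing the test.

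MK25 raised most of the group in both cultures. In ischemic culture 7 of 10 genes rose and none fell, where 19.8% of all genes were called higher and 22% lower. In regular culture 7 of 10 rose and none fell, where 7% of all genes were called higher and 5.21% lower. *SCD*, *FADS2*, *FADS1*, *FASN*, *ACSS2* and *ELOVL6* rose in both cultures. *SREBF1* passed the test in ischemic culture and *ACLY* in regular culture, while *ELOVL5* and *ACACA* passed in neither. At an unadjusted p under 0.05 no member was lower with MK25 in either culture, and voom called 7 genes in each. The median difference was 0.37 in ischemic and 0.45 in regular culture, beside 0.00 for all genes in both.

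*SCD* and *FADS2* had the largest MK25 differences of the group in both cultures. *SCD* measured 10.14 and 10.13 with MK25 in ischemic culture, against 8.29 and 8.41 with DMSO, a rise of 1.79 (SE 0.08, limma adjusted p = 4.44e-11) or 3.46-fold. In regular culture it measured 9.13 and 9.39 against 7.31 and 7.36, a rise of 1.93 (SE 0.08, limma adjusted p = 8.77e-12) or 3.80-fold. The MK25 libraries lay above every DMSO library of the same culture by more than the spread between replicates. Libraries of MK25 and DMSO did not overlap for 72.2% of all genes in ischemic and 51.4% in regular culture. Among all 14024 genes the rise of *SCD* ranked 40 from the highest in ischemic and 18 in regular culture.

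*FADS2* measured 7.30 and 7.17 with MK25 in ischemic culture against 5.44 and 5.42 with DMSO, a rise of 1.80 (SE 0.06, limma adjusted p = 9.73e-12) or 3.49-fold. In regular culture it measured 7.15 and 7.22 against 5.40 and 5.39, a rise of 1.79 (SE 0.06, limma adjusted p = 1.79e-12) or 3.46-fold. Its ranks were 37 in ischemic and 29 in regular culture. *FADS1* measured 8.31 and 8.27 against 7.58 and 7.61 in ischemic culture, a rise of 0.70 (SE 0.06, limma adjusted p = 7.82e-08). In regular culture it measured 7.83 and 7.85 against 6.99 and 7.0, a rise of 0.85 (SE 0.06, limma adjusted p = 1.01e-08). Within a library, *FADS2* minus *FADS1* per kb moved from −1.64 and −1.69 with DMSO to −0.52 and −0.60 with MK25 in ischemic culture, and from −1.08 and −1.12 to −0.18 and −0.13 in regular culture.

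*FASN* measured 10.08 and 10.00 with MK25 in ischemic culture against 9.07 and 9.15 with DMSO, a rise of 0.93 (SE 0.09, limma adjusted p = 2.91e-07). In regular culture it measured 10.32 and 10.49 against 9.85 and 10.08, a rise of 0.44 (SE 0.09, limma adjusted p = 0.0023), which did not pass when the variance trend was dropped (limma adjusted p = 0.053). *ELOVL6* measured 5.34 and 5.38 against 5.08 and 5.02 in ischemic culture, a rise of 0.31 (SE 0.06, limma adjusted p = 0.0010). It measured 5.70 and 5.73 against 5.27 and 5.25 in regular culture, a rise of 0.45 (SE 0.06, limma adjusted p = 1.52e-04). *ELOVL5*, the other elongase, did not pass the test, with a 95% interval from −0.22 to 0.01 in ischemic and from −0.15 to 0.08 in regular culture.

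Of the acetyl-CoA genes, *ACSS2* measured 5.82 and 5.73 with MK25 in ischemic culture against 5.48 and 5.38 with DMSO, a rise of 0.35 (SE 0.07, limma adjusted p = 7.61e-04). In regular culture it measured 5.63 and 5.71 against 4.96 and 4.90, a rise of 0.74 (SE 0.07, limma adjusted p = 1.06e-06). *ACLY* measured 8.14 and 8.27 against 7.83 and 7.86 in regular culture, a rise of 0.36 (SE 0.06, limma adjusted p = 5.62e-04). In ischemic culture its difference was 0.13 with a 95% interval from 0.00 to 0.25 (limma adjusted p = 0.089). *ACACA* had wide intervals, from −0.89 to 0.87 in ischemic and from −0.45 to 1.30 in regular culture.

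*SREBF1*, the regulator, had smaller differences with MK25 than *SCD*, *FADS2*, *FADS1* and *FASN*. It measured 7.50 and 7.49 with MK25 in ischemic culture against 7.06 and 7.13 with DMSO, a rise of 0.40 (SE 0.07, limma adjusted p = 1.82e-04). In regular culture it measured 5.91 and 6.02 against 5.67 and 5.87, a difference of 0.19 (SE 0.07) that did not pass the test (limma adjusted p = 0.072). The libraries did not overlap, as held for 51.4% of all genes. Without 1 library that difference ranged from 0.10 without regular DMSO replicate 1 (limma adjusted p = 0.40) to 0.29 without regular DMSO replicate 2, where it passed (limma adjusted p = 0.025).

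**Figure D4:**
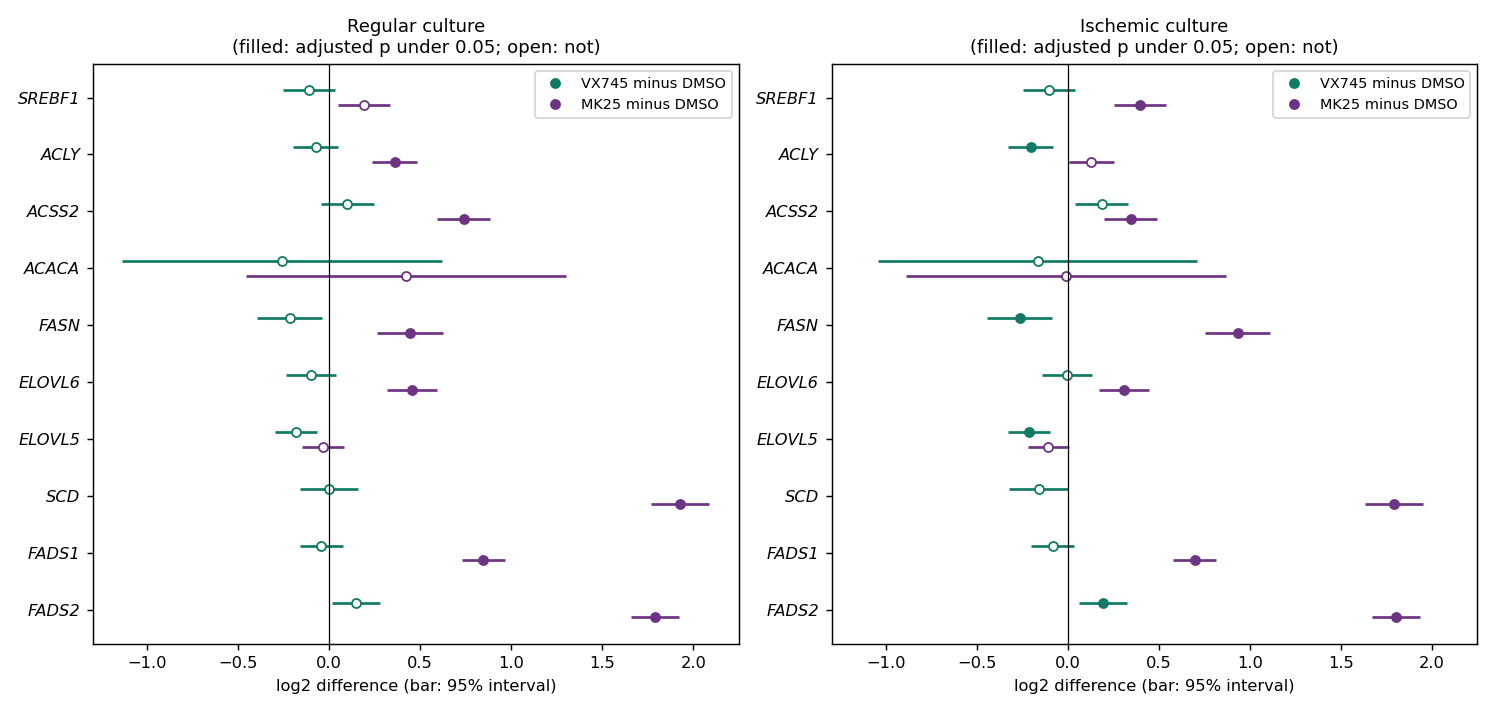
The log2 difference between each inhibitor and DMSO (horizontal axis) is plotted for each gene with its 95% interval in regular (left) and ischemic culture (right), with VX745 in green, MK25 in purple and filled points where the adjusted p was under 0.05. *SCD* and *FADS2* lie between 1.79 and 1.93 with MK25 in both cultures, and *ACACA* has the widest intervals.

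The interaction asked whether the MK25 effect differed between the cultures. It called 1 of 10 genes higher and 1 lower, where 10.5% of all genes were called higher and 13.9% lower. *FASN* rose more in ischemic culture, by a difference of effects of 0.49 (SE 0.12, limma adjusted p = 0.0070), and did not pass without the variance trend (limma adjusted p = 0.061). *ACSS2* rose less there, by −0.39 (SE 0.10, limma adjusted p = 0.0075). For *SCD* the difference of effects was −0.14 with a 95% interval from −0.36 to 0.09, and for *FADS2* it was 0.01 with an interval from −0.18 to 0.20. *SREBF1* had 0.21 (limma adjusted p = 0.13) and *ACLY* had −0.23 (limma adjusted p = 0.050, just above the threshold). Without 1 library *SREBF1* ranged from 0.11 without regular DMSO replicate 2 (limma adjusted p = 0.45) to 0.30 without regular DMSO replicate 1, where it passed (limma adjusted p = 0.025). *ACLY* ranged from −0.16 without regular MK25 replicate 2 (limma adjusted p = 0.18) to −0.30 without regular MK25 replicate 1, where it passed (limma adjusted p = 0.021).

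Set directly against VX745, MK25 gave higher levels of 7 of the 10 genes in ischemic culture, where 8.22% of all genes were higher and 10.2% lower. In regular culture 8 of 10 were higher, where 3.96% of all genes were higher and 1.43% lower. *SCD* was higher by 1.95 in ischemic and 1.93 in regular culture, and *FADS2* by 1.61 and 1.64. *SREBF1* was higher by 0.50 (SE 0.07, limma adjusted p = 4.18e-05) in ischemic and by 0.30 (SE 0.07, limma adjusted p = 0.011) in regular culture. The last call was lost without regular MK25 replicate 2 (limma adjusted p = 0.12) and without either regular VX745 replicate (limma adjusted p = 0.070 and 0.071).

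The genes that process SREBP precursors moved in their own ways. Of 12 such genes, 5 rose and 3 fell under ischemia with DMSO, where 34.4% of all genes were called higher and 35.2% lower. In untreated cells 3 rose and 6 fell under ischemia, where 35.2% of all genes were called in each direction. *INSIG2* rose by 3.38 (SE 0.08) and *INSIG1* by 2.90 (SE 0.21), while *RNF145*, a ubiquitin ligase gene, fell by 1.63 on the log2 scale. *SCAP*, the escort gene, fell by 0.43 on the log2 scale in untreated cells and measured −0.05 with DMSO, where it did not pass the test. *SREBF2* measured 0.03 under ischemia in untreated cells, without passing the test, and rose by 0.29 with DMSO. With MK25, *SREBF2* rose by 1.40 (SE 0.05) in ischemic and by 1.31 (SE 0.05) in regular culture, more than *SREBF1* in either. *INSIG1* rose with MK25 by 1.79 (SE 0.07) in ischemic and by 3.56 (SE 0.07) in regular culture, and the difference of these effects was −1.77 (SE 0.11, limma adjusted p = 9.05e-09). *RNF145* rose by 0.74 and 0.43, and *SCAP* did not pass the test in either culture.

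Genes of sterol synthesis and uptake, which SREBP2 controls, were described as a neighbouring pathway. Under ischemia in untreated cells 5 of 21 rose and 13 fell, where 35.2% of all genes were called in each direction. Their median was −0.34, and *IDI1*, an isomerase gene of the pathway, fell by 0.78 on the log2 scale. Under ischemia with DMSO 4 of 21 rose and 9 fell, with a median of −0.21. There 34.4% of all genes were called higher and 35.2% lower. With MK25, 19 of 21 rose and none fell in ischemic culture, and 21 of 21 rose in regular culture, with medians of 0.86 and 1.35. Of all genes, 19.8% were called higher with MK25 in ischemic and 7% in regular culture. *HMGCS1*, the HMG-CoA synthase gene, rose by 1.16 (SE 0.07) in ischemic and 2.66 (SE 0.07) in regular culture. *STARD4* and *DHCR7* led in ischemic culture with rises of 1.68 and 1.39, and *MSMO1* followed *HMGCS1* in regular culture with 2.50. The interaction was lower for 17 of 21 sterol genes and higher for 1, where 13.9% of all genes were called lower and 10.5% higher. *FASN* was the gene of the fatty acid group that it called higher.

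MK25 also moved hypoxia genes in regular culture. Of the 10 hypoxia genes checked, 9 rose and none fell with MK25 in regular culture, where 7% of all genes were called higher and 5.21% lower. Their median was 1.14, and *VEGFA* rose by 0.92 (SE 0.05, limma adjusted p = 1.68e-09). *CA9*, which lay between 6.86 and 7.32 in the ischemic libraries of that experiment, ranged from −2.01 to 2.30 in the regular ones. In ischemic culture 1 rose and 1 fell with MK25, where 19.8% of all genes were called higher and 22% lower. With VX745 in ischemic culture none of the 10 rose and 8 fell, with a median of −0.37. There 14% of all genes were called higher and 14.9% lower. The part of the hypoxia genes in the MK25 differences of the fatty acid genes was not tested.

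**Figure D5:**
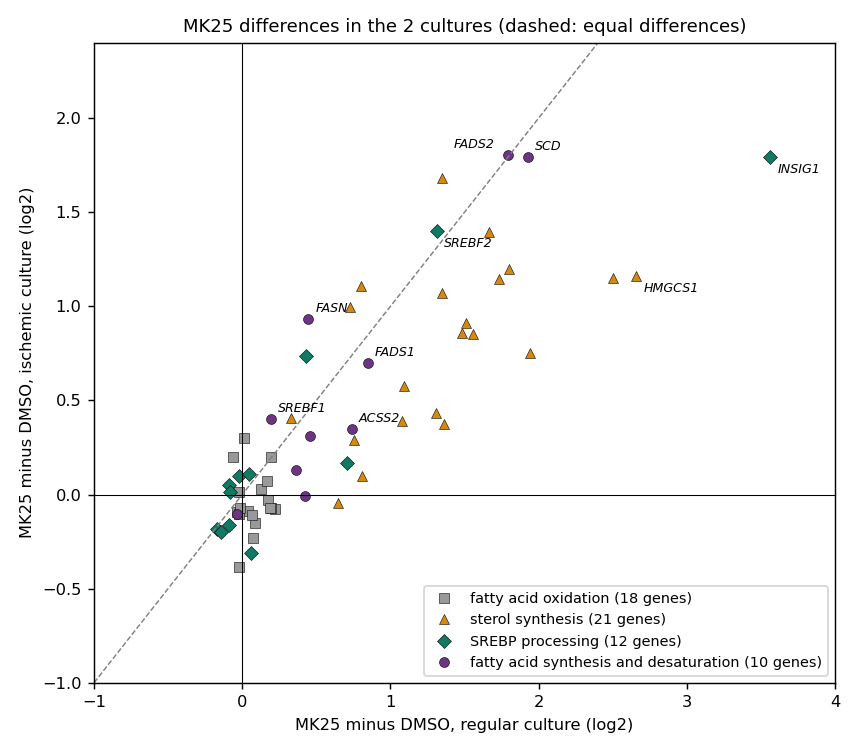
The log2 difference between MK25 and DMSO in regular culture (horizontal axis) is plotted against that in ischemic culture (vertical axis) for the 10 fatty acid genes and 3 neighbouring lists, with a dashed line where both are equal. *SCD* and *FADS2* lie near that line, *FASN* above it, and *INSIG1* and *HMGCS1* below it with 3.56 and 2.66 in regular culture.

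The other enzymes of fatty acid synthesis and elongation showed no shared rise with MK25. Of 18 listed, 2 rose and 3 fell in ischemic culture and 2 rose and 1 fell in regular culture, with medians of −0.01 and 0.02. Of all genes, 19.8% were called higher and 22% lower in ischemic culture, and 7% and 5.21% in regular culture. *ELOVL3* and *ACACB*, which encodes the carboxylase at the mitochondrial membrane, rose by 0.95 and 0.63 in ischemic culture, and *OXSM*, of mitochondrial fatty acid synthesis, by 0.35 in regular culture. Among those that fell, *HACD2* was lower by −0.46 in ischemic culture and *ELOVL2* by −0.38 in regular culture. *ELOVL3*, with a low mean log2 value of 0.66, and *ACACB* also rose with VX745 in ischemic culture, by 0.70 and 0.74. Under ischemia in untreated cells 6 of the 18 rose and 10 fell, where 35.2% of all genes were called in each direction. *FADS3*, a relative of *FADS1* and *FADS2*, rose by 0.82, *ELOVL4* fell by 0.79 on the log2 scale and *HACD3* fell by 0.61 on the log2 scale. Under ischemia with DMSO 5 of the 18 rose and 9 fell, where 34.4% of all genes were called higher and 35.2% lower.

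Genes that supply citrate and NADPH were measured for 6 of 7. Under ischemia in untreated cells 3 rose and 2 fell, where 35.2% of all genes were called in each direction. They were led by *ME1*, the malic enzyme gene, which rose by 1.98, and *ACSS1*, which fell by 1.05 on the log2 scale. Under ischemia with DMSO 2 of the 6 rose and 1 fell, where 34.4% of all genes were called higher and 35.2% lower. With MK25, 4 rose and 1 fell in ischemic culture and 2 rose in regular culture. Of all genes, 19.8% were called higher and 22% lower in ischemic culture, and 7% and 5.21% in regular culture. *IDH1*, the cytosolic isocitrate dehydrogenase gene, rose by 0.73 in ischemic and 0.84 in regular culture, *SLC25A1*, the citrate carrier gene, by 0.33 in ischemic culture, and *PGD* by 0.44 in regular culture.

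Genes of factors and kinases that act with or on SREBP were measured for 16 of 18. Under ischemia in untreated cells 5 rose and 7 fell, where 35.2% of all genes were called in each direction. *TRIB3* rose by 4.15 and *PRKAA2*, which encodes a catalytic subunit of AMPK, by 2.58, while *MLXIP* fell by 0.95 on the log2 scale. *PPARGC1B*, a coactivator gene with a low mean log2 value of 1.13 in that experiment, fell by 2.78 on the log2 scale. Under ischemia with DMSO 6 of the 16 rose and 6 fell, where 34.4% of all genes were called higher and 35.2% lower. With MK25, 2 of the 16 rose and 4 fell in ischemic culture, where 19.8% of all genes were called higher and 22% lower. *PPARGC1B*, with a low mean log2 value of 1.91, rose by 1.28 there, and by 0.84 with VX745. In regular culture 1 rose with MK25, *TRIB3* with 0.51, where 7% of all genes were called higher and 5.21% lower. *TRIB3* was lower with MK25 in ischemic culture, at −0.39.

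Genes that use or move fatty acids were measured as well. Of all genes, 35.2% were called in each direction under ischemia in untreated cells, and 34.4% higher and 35.2% lower with DMSO. With MK25, 19.8% of all genes were called higher and 22% lower in ischemic culture, and 7% and 5.21% in regular culture. Of 13 genes of acyl activation and glycerolipid synthesis, 1 rose and 7 fell under ischemia in untreated cells, with *LPIN2* higher by 1.29 and *GPAM* lower by −1.24. In the second experiment 14 were listed, of which 3 rose and 6 fell under ischemia with DMSO. Of the same 14, 6 rose and 1 fell with MK25 in ischemic culture and 3 rose and 1 fell with it in regular culture. *LPIN1*, a phosphatidate phosphatase gene, rose by 1.29 and 1.12 in these, and *ACSL3* by 0.46 and 0.36. The gene that fell was *GPAT3* in both cultures, lower by −0.89 in ischemic and by −0.22 in regular culture. Of 7 genes of fatty acid uptake and binding, 3 rose and 4 fell under ischemia in untreated cells, with *SLC27A4* lower by −1.38, and 3 rose and 2 fell with DMSO, while MK25 raised 1 and lowered 1 in ischemic culture and raised 2 in regular culture. Of 18 genes of fatty acid oxidation, 5 rose and 7 fell under ischemia in untreated cells and 7 rose and 4 fell with DMSO, and MK25 raised 1 and lowered 2 in ischemic culture and raised 2 in regular culture, with medians of −0.07 and 0.07.

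As a share of all reads on listed genes, the members rose with MK25. They took 0.321% ± 0.00446 (SD, n = 2) of reads with MK25 against 0.149% ± 0.00359 with DMSO in ischemic culture, and 0.310% ± 0.0247 against 0.193% ± 0.0163 in regular culture. In untreated cells the share was 0.133% ± 0.000381 in ischemic and 0.181% ± 0.0144 in regular culture. With VX745 it was 0.144% ± 0.00527 in ischemic and 0.176% ± 0.0115 in regular culture. The ranges of the MK25 and DMSO libraries did not overlap in either culture.

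The genes whose pattern was nearest to a member over the 8 groups were found among 9768 genes by the root mean square difference of group means, centred within each experiment. For *SCD*, *SREBF2* at 0.43 and *CLCN6* at 0.44 were among the 3 nearest, against a range of 2.80 over the groups. For *FADS1* they were *CLCN6* at 0.11, *NCR3LG1* at 0.14 and *BRI3* at 0.14. *SREBF1* was nearest to *FAM117B*, *KAT6B* and *DIPK2A*, each at 0.10 to 0.11, and *FASN* to *JAKMIP2* at 0.17, *GPRC5B* at 0.19 and *C1orf226* at 0.21. These distances share the libraries of the members and are given as a description.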

How the data were processed

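RNA was sequenced in 16 libraries of LN229 cells, and samples were grouped by the culture and treatment in the labels. Reads were trimmed and aligned to GRCh38 with HISAT2 by the authors, who used edgeR for differences, and the deposited tables hold log2 normalized CPM per gene and library (versions are not given in the sources used here). These values were used as deposited. Undoing the logarithm gave values within 0.00112 of a whole number of reads, from which depth was read. Floors of 3 reads cover counting error only, and the 95% intervals come from the spread between libraries in limma.

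Differences came from limma (3.58.1 in R 4.3.3) with a variance trend, 1 mean per group and all libraries of an experiment in the fit. A gene was called at 0.05 on two-sided p-values with Benjamini-Hochberg adjustment across its table. limma replaced edgeR, which the authors used, because the values were deposited as log2 normalized CPM. The reads recovered from them were used with voom as an alternative. On simulated data with 14024 genes, as in MK25 against DMSO in ischemic culture, a log2 change of 1 was called for 100% of 100 altered genes, with 11 false calls.

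The genes and lists were chosen with earlier results of these data known. All 10 genes are named. From each neighbouring list, up to 3 genes with the largest called difference under ischemia in untreated cells (mean of at least 3) and up to 2 for each inhibitor comparison are named, with *INSIG1*, *SCAP* and *SREBF2* in any case. Some genes that this rule selects are left out of the text. Lists are described by counts, without a test. Identifiers matched symbols for 99.4% and 99.3% of genes. Lengths came from GENCODE 44, in place of the RefSeq transcripts first planned, and positions and promoters from RefSeq on GRCh38.p14.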

Additional observations from a re-analysis of the deposited data

Results flagged for a closer look

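For 2 genes the effect of MK25 differed between the cultures by a test of the difference itself (limma, adjusted over all 14024 genes). *FASN* rose more in ischemic than in regular culture, by 0.49 on the log2 scale (SE 0.12, adjusted p = 0.0070). It lay higher with MK25 in 2 of 2 libraries of each culture, and the difference without 1 library ranged from 0.37 to 0.61. *ACSS2* rose less in ischemic culture, by −0.39 (SE 0.10, adjusted p = 0.0075), with a range from −0.44 to −0.35 without 1 library. It too lay higher with MK25 in 2 of 2 libraries of each culture. Libraries of MK25 and DMSO did not overlap for 72.2% of all genes in ischemic and 51.4% in regular culture.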

How the results depend on the processing

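Counts of members higher and lower were recomputed under each alternative, and no called value changed sign. Asking for a fold change of at least 1.5 as well gave 2 higher and 2 lower under ischemia in untreated cells, 3 higher and 1 lower with DMSO, 0 higher and 0 lower with VX745 in ischemic culture, 4 higher with MK25 in each culture, 4 and 5 higher for MK25 against VX745 in ischemic and regular culture, and 0 higher and 0 lower for the MK25 interaction. VX745 in ischemic culture was the least stable comparison, with 2 higher and 0 lower after quantile normalization, 0 higher and 1 lower with no variance trend, and 2 higher with only the groups compared and with voom. Leaving out 1 library gave 0 higher each time and 0 to 1 lower there, 2 to 3 lower for ischemia with DMSO, and 1 to 2 higher and 1 to 2 lower for the MK25 interaction. That interaction gave 0 higher with no variance trend, where the adjusted p of *FASN* was 0.061, and 2 lower when genes with a mean below 0 were dropped, with a pseudocount of 1 CPM and with the replicate block, each time by *ACLY*. Whether the replicate numbers pair the libraries stayed unclear. Correlations of deviations ran from −0.27 to 0.32 over 15 pairs of groups in the second experiment, 4 of them above 0.1. The 1 pair in the first experiment had 0.27. The replicate block changed no other call of a member. Over all genes, voom called 13 genes against 47 for VX745 in regular culture. *FASN* was highest per kb in 8 groups by the median transcript length, against 5. With 2 libraries per group, the 4 calls with VX745 in ischemic culture were each lost in 2 or more of the 4 fits without 1 library, and the low read counts of *ACACA* limit what can be seen of it.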
